A study of Mus musculus with 7 samples.

Results

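The mural cells of the mouse thyroid were examined, that is, the pericytes and vascular smooth muscle cells that wrap the endothelium of its vessels. They were chosen among single cells of adult thyroid tissue by a gate on 5 mural genes (Rgs5, Acta2, Notch3, Tagln and Pdgfrb). A cell entered when its recovered UMIs (unique molecular identifiers, 1 per captured transcript) reached 1000 and the mean deposited value of these genes, ln(1 + UMIs per 10000), was 0.5 or more. That mean also had to exceed the means of the endothelial list (Plvap, Emcn, Kdr, Cdh5, Egfl7, Cldn5), the immune list (Ptprc, Tyrobp, Laptm5, Fcer1g) and the stromal list (Col3a1, Col1a2, Dcn), and thyroglobulin (Tg) had to stay under 300 UMIs per 10000. The gate found 71 mural cells among 578 tissue cells, 34 in tissue sample 1 and 37 in tissue sample 2, of 2590 cells deposited in the series.

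The study compared mouse thyroid follicular cell organoids (TFCOs) with the gland they came from. Both tissue samples were thyroid of wild type C57BL/6 mice, digested with collagenase and TrypLE, and live (DAPI-negative) cells were sorted without a cell type marker into the wells of 384-well plates. The other 5 samples were TFCOs of the same genotype and strain, 3 of late and 2 of early passage. Each tissue sample is 1 plate, so the spread between the samples is given by a pair of values. Other tissue cells were classed by the same gate, which gave 241 endothelial, 56 stromal and 58 immune cells, 95 follicular cells (Tg at 300 per 10000 or more) and 57 unassigned cells.

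Pericytes sit in the basement membrane of capillaries and venules, where they steady the endothelium and, in some beds, set capillary diameter. Smooth muscle cells form the wall of arterioles and larger vessels and contract through smooth muscle actin and myosin. Endothelial cells recruit mural cells with PDGF-B, which acts on PDGFRB, and keep them mature through Notch ligands, which act on NOTCH3. The thyroid is among the most densely vascularized glands, and its fenestrated capillaries enclose each follicle.

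Mural cells made up 11.1% of tissue cells in sample 1 (34 of 305, exact 95% binomial interval 7.84 to 15.2) and 13.6% in sample 2 (37 of 273, interval 9.73 to 18.2), or 12.4% ± 1.70 (SD, n = 2). The intervals cover counting error only and overlap widely. The shares are of sorted cells, and sorting and digestion were not calibrated to the intact gland. In TFCOs the same gate took 1 of 307 cells in late sample 1 and 1 of 235 in early sample 1, with 0 of 360, 0 of 242 and 0 of 313 cells in the other three. A count of 0 there allows a share of up to 0.833% to 1.24% when 3 cells are taken as the limit, and the exact 95% intervals reach 1.02% to 1.51%.

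The members held a median of 4186 UMIs and 2348 genes in sample 1 and of 3800 UMIs and 2231 genes in sample 2, close to the endothelial cells at 3526 and 3704 UMIs. A single member of sample 2 held 268847 UMIs, 64.1% of all UMIs of that sample's mural cells, against 17861 in the next deepest member. Levels are therefore given as means over cells of UMIs per 10000, in which every cell counts equally. The deepest member had a gate mean of 1.17, an endothelial list mean of 0.498, Tg at 151 per 10000 and no Kcnj8. Among the members, 1 well barcode occurred in both plates. No doublet caller was run.

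The gate fixed the levels of its own 5 genes, which are given as a description. Rgs5, a regulator of G protein signalling, averaged 38.5 and 34.6 UMIs per 10000 in mural cells of samples 1 and 2, with medians of 30.3 and 32.6 and highest cells at 157 and 120.0. A UMI of it was found in 97.1% and 97.3% of mural cells and in 10.6% and 11.9% of endothelial cells, which should lack it. With every cell thinned to 1000 UMIs these shares were 91.2% and 81.1% against 4.88% and 5.08%. Notch3 averaged 18.9 and 15.7 per 10000 and Pdgfrb 10.2 and 8.28. The contractile genes of the gate were present in far fewer members. Acta2, smooth muscle actin, had a UMI in 9 of 34 and 13 of 37 cells, with a mean of 6.00 and 5.18 per 10000, a median of 0 in both samples and highest cells at 104 and 120.1. Tagln, an actin-binding protein of smooth muscle, had a UMI in 10 of 34 and 5 of 37 cells and averaged 2.38 and 0.570. Of the 71 members, 8 held UMIs of all 5 gate genes and 39 of 3 of them. Membership thus rested mainly on Rgs5, Notch3 and Pdgfrb.

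**Figure D1:**
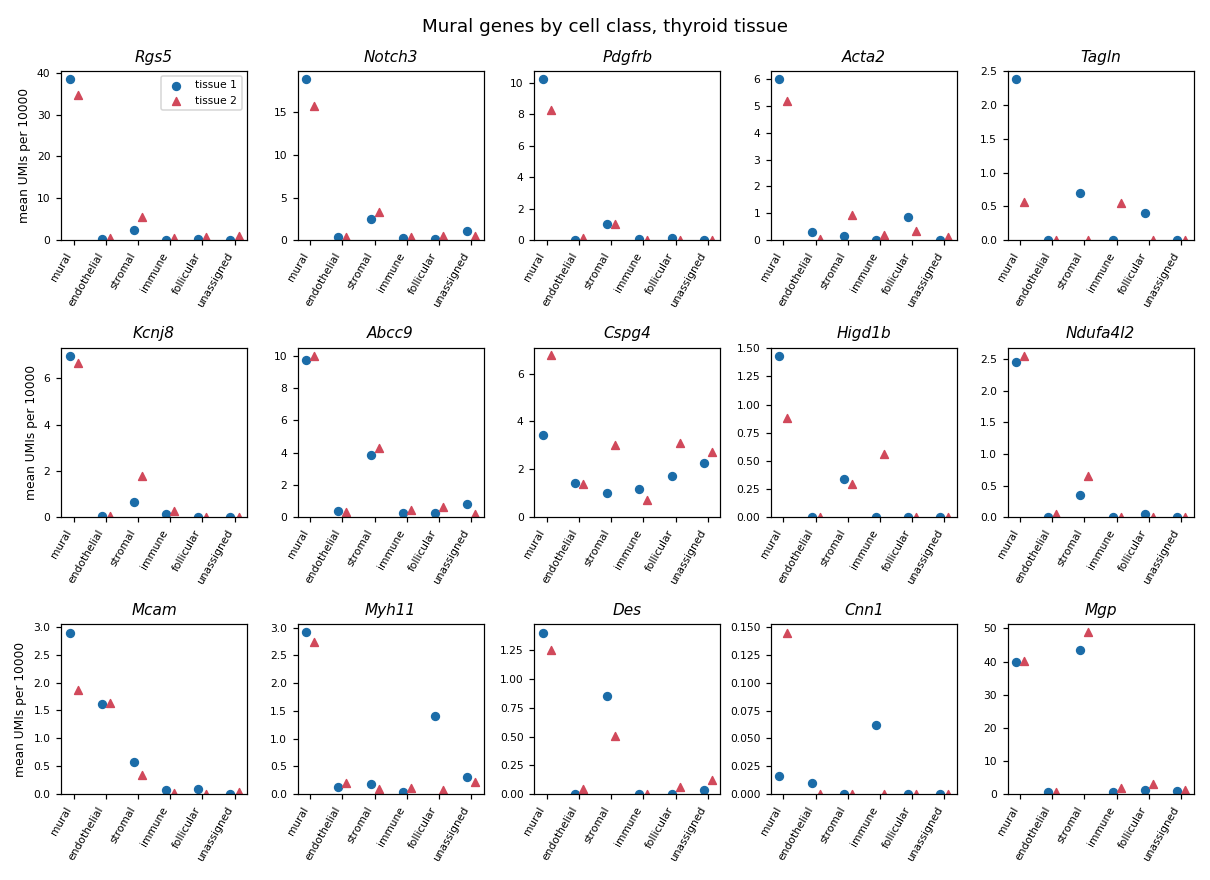
Mean UMIs per 10000 (linear axes from 0, 1 point per tissue sample) of the 5 gate genes, 9 further mural markers and Mgp in 6 classes of thyroid tissue cells. Kcnj8 and Ndufa4l2 stand highest in mural cells in both samples, Cnn1 reaches 0.145 per 10000 at most, and Mgp is as high in stromal as in mural cells.

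Genes that the gate did not use were set against the label. Of 9 further mural markers, 5 were at least 1 higher in mural than in other tissue cells on the log2(mean + 1) scale in both samples, namely Kcnj8, Abcc9, Ndufa4l2, Myh11 and Des. Des, at 1.11 and 1.05, lost the call in 8 alternatives, among them all deposited cells, and Myh11 lost it with cells thinned to 1000 UMIs, as Ndufa4l2 did with summed UMIs. This difference of 1 or more, with the same direction in both samples, is the call used throughout, and it was met by 128 of the 5557 genes with a mean of 0.5 per 10000 or more in either set (2.3%), while 105 genes (1.89%) were lower by as much. The members were chosen on this contrast and their genes are linked with the gate genes, so these counts describe the cells and carry no test. With UMIs summed over cells, so that the deepest member dominated sample 2, 46 genes were higher, and 119 without that member. Cspg4 (NG2 proteoglycan) differed by 0.84 and 1.41, Higd1b by 1.22 and 0.79 and Mcam by 1.09 and 0.63. The 1 added to each mean shrinks differences at low levels, and a gene under 1 per 10000 in both sets cannot meet the call. Higd1b, for example, averaged 1.43 and 0.881 in mural and 0.0453 and 0.0872 in other tissue cells. Cnn1, calponin of differentiated smooth muscle, was near 0, with 1 UMI in sample 1 and 4 in sample 2.

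The pericyte markers Kcnj8 and Abcc9 each had a UMI in most members, whereas the late smooth muscle marker Cnn1 was nearly absent. Other markers did not divide this way. The contractile gene Myl9 had a UMI in 20 of 34 and 23 of 37 members, against 23 of 34 and 23 of 37 for Kcnj8. Myh11 had one in 14 of 34 and 14 of 37 members, and the pericyte marker Higd1b in 35.3% and 24.3%. The values near the threshold were less clear. The 5 members just inside it had gate means of 0.576 to 0.633, and the 5 cells just outside had 0.413 to 0.487. The 9 members with a gate mean under 1 had a median Rgs5 of 1.32 per 10000, against 34 in the other 62. Rgs5 enters the gate mean, so the split itself favoured this order. Their median of Gm10801, a predicted gene, was 752 per 10000 against 54.2. A stromal list mean of 0.5 or more was found in 44 of 71 members, an endothelial one in 3 and an immune one in 0.

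Pericyte genes formed the clearest group. Of 21 listed, 20 passed the filter on low values, 11 were higher in both samples and 0 lower, with a median log2 difference of 1.28 and 1.51, against 0.04 and 0.03 over all genes tested. The shares over all genes tested, 2.3% higher and 1.89% lower, are the ones to set beside this count and those of the lists below. The 11 include Bgn, which averaged 3.80 and 2.90 per 10000 in mural cells but 7.21 and 5.42 in stromal cells. Kcnj8 and Abcc9 encode the pore and the sulfonylurea receptor of the vascular ATP-sensitive potassium channel, and the genes lie next to each other at chr6:142564837-142571614 and chr6:142587862-142702315 (GRCm38). Kcnj8 averaged 6.99 and 6.66 per 10000 in mural cells, 0.0411 and 0.0479 in endothelial cells and 0.663 and 1.78 in stromal cells. Abcc9 averaged 9.76 and 10.0 in mural cells and 3.86 and 4.31 in stromal cells. Stromal cells thus carried some of both, and endothelial cells almost none of Kcnj8. Across mural cells the levels of the channel genes had a Spearman rho of 0.67 in sample 1 (n = 34) and 0.48 in sample 2 (n = 37), and 41 members held UMIs of both. These cells share a plate and differ in depth, so the values describe them only.

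Steap4, a metalloreductase, differed by 2.72 and 3.33 on the log2 scale, from a mural mean of 7.05 and 11.4 per 10000. Art3, an ecto-ADP-ribosyltransferase family member, differed by 2.22 and 2.06, and Rgs4, a relative of Rgs5, by 1.79 and 2.33. Rgs4 was at 0 in endothelial cells of both samples. Ebf1, a transcription factor, averaged 34.5 and 30.3 per 10000 in mural cells, but also 14.5 and 12.9 in endothelial cells. Its relative Ebf2 separated the classes further, with 9.16 and 6.12 in mural cells, 0.596 and 0.526 in endothelial cells and 3.71 and 2.80 in stromal cells. The orphan receptor Nr2f2 differed by 1.44 and 1.17 from other tissue cells, while its stromal level of 1.52 and 2.46 overlapped the mural level of 2.67 and 1.97.

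Contractile genes were the next group. Of 25 listed besides Acta2 and Tagln, 20 passed the filter, 9 were higher in both samples and 0 lower, with a median log2 difference of 1.14 and 0.87. Myl9, a regulatory light chain of smooth muscle myosin, averaged 5.93 and 4.89 per 10000 in mural cells and 1.12 and 0.769 in stromal cells. Mylk, the kinase that phosphorylates this light chain, differed from other tissue cells by 1.59 and 1.95 on the log2 scale. Myh11, the smooth muscle myosin heavy chain, averaged 2.92 and 2.75 per 10000, with a UMI in 14 of 34 and 14 of 37 members. The tropomyosins Tpm1 and Tpm2 differed by 1.57 and 1.18, and by 1.5 and 1.23. Tpm2 had a UMI in 15 of 34 and 10 of 37 members, and cells that lack the transcript and cells in which it was not captured cannot be told apart. Among the regulators of smooth muscle genes, 2 of 13 past the filter were higher (Ebf2 and Nr2f2) and 1 was lower (Meis2, by 1.65 and 1.64). Myocd, a coactivator of serum response factor (SRF), averaged 0.918 and 0.478 per 10000 and differed by 0.28 and 0.01.

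SRF binds the CArG box, and its sites near the start of contractile genes are well known, which is why a pair of promoters is shown. The 250 bases upstream of the start were taken from RefSeq (GRCm38.p6). Capitals mark CArG boxes, searched on both strands with up to 1 G or C allowed among the 6 middle bases. Acta2 lies on the minus strand (chr19:34255374-34255623) and Myl9 on the plus strand (chr2:156775214-156775463).
Acta2: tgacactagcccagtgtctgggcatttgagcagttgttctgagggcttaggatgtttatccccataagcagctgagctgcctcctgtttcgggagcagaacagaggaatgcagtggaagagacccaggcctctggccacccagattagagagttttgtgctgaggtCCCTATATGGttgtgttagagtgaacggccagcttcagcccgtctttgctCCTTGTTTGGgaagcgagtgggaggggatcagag
Myl9: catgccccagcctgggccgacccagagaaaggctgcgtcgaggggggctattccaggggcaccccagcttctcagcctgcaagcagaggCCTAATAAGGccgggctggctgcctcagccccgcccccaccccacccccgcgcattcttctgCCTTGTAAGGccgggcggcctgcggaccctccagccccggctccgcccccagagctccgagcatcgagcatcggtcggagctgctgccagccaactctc

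Each of these promoters held 2 such boxes. Those of Acta2 began 84 and 34 bases upstream of the start, and those of Myl9 began 161 and 99 bases upstream. The contractile list does not include Acta2. Among its genes with a RefSeq promoter 4 of 22 held a box, among the pericyte genes 0 of 15, and among all promoters 8.65%. Without the allowance for a G or C these were 3 of 22, 0 of 15 and 1.40%. A box is a run of letters and was not measured as a bound site.

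The mural cells of each sample were then ranked on their summed Acta2 and Tagln, to ask which other genes followed the contractile genes from cell to cell. A UMI of either gene was found in 14 of 34 and 15 of 37 members. The upper-ranked cells (17 and 18) therefore included 3 cells at 0 in each sample, placed by column order. The upper-ranked cells also held more UMIs, with a median of 4782 against 3557 in sample 1 and of 3992 against 3563 in sample 2. The part of depth in these differences was not tested. Of 5931 genes past the filter, 9 were at least 1 higher on the log2 scale in the upper-ranked cells of both samples (0.152%), 2 of which are Acta2 and Tagln themselves, and 2 were lower (0.0337%). These counts depend on the setting and became 93 and 92 with cells thinned to 1000 UMIs, and 307 and 220 with a pseudocount of 0.1.

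The other genes that were higher, named here after their values were seen, were Mustn1, Eln, Tppp3, Gm13889, Rps3, Rps23 and mt-Cytb. Mustn1, a small muscle protein, averaged 1.55 against 0.0897 per 10000 in sample 1 and 1.64 against 0.129 in sample 2, and Eln, elastin, 1.57 against 0.202 and 1.70 against 0.156. These levels rest on 13 and 15 cells with a UMI. Myh11 averaged 4.01 against 1.83 and 4.43 against 1.15, a log2 difference of 0.82 and 1.34 that met the call in sample 2 alone. When the cells were ranked instead on Myh11, Tpm2 and Myl9, Acta2 differed by a mean of 2.85, Mustn1 by 1.15 and Tppp3 by 1.08 on the log2 scale, while Eln, at -0.15, and mt-Cytb, at -0.27, changed sign. The lower genes were Gm47352 and Nr1h3, the liver X receptor alpha, and Nr1h3 was at 0.38 on the second ranking.

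By the rule for genes with UMIs in at least 30% of mural cells, the 10 genes with the largest difference included Myh11, mt-Cytb, Rps3, Cdk8, Pvr, mt-Nd4, Pde8b and Commd10. The 10 most negative included Gm47352, Nr1h3, Ext2, Gm28578, Gpx8, Abca3, Dcdc5, Rpl17 and Zcchc7. Pvr, a nectin-like adhesion receptor, differed by 0.98 and 1.31, and Gpx8, an endoplasmic reticulum peroxidase, by -0.90 and -1.39. Of the genes named from this rule, Myh11 alone is on the contractile list.

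**Figure D2:**
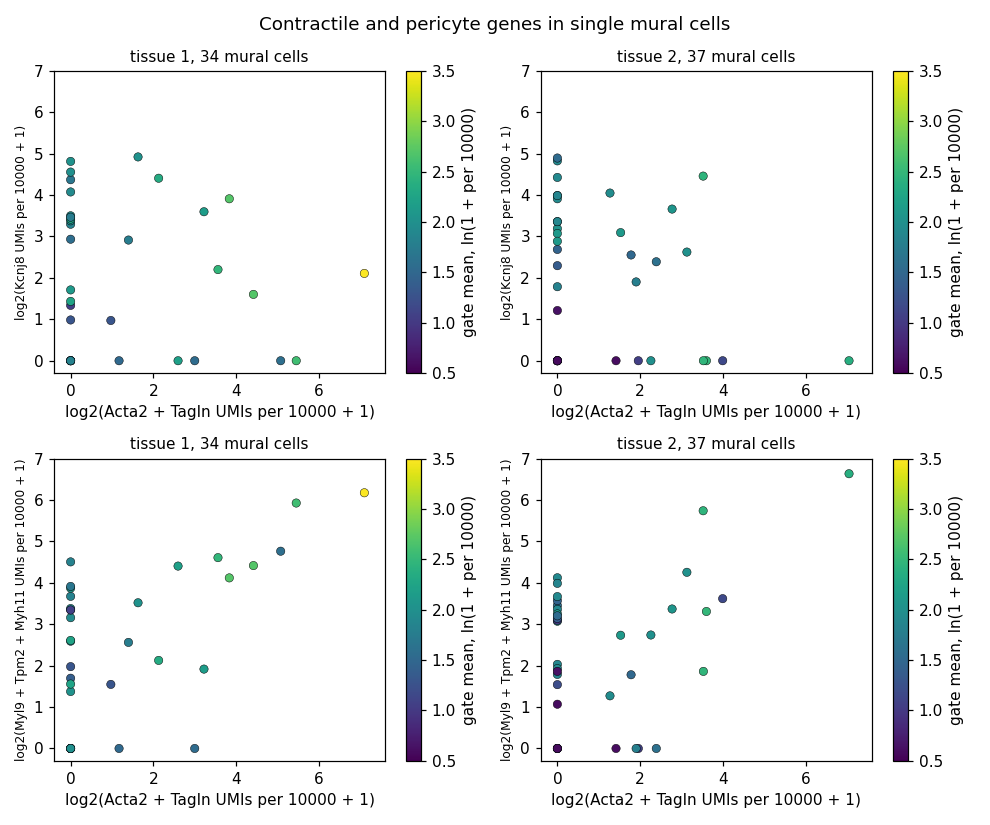
Each point is 1 mural cell of tissue sample 1 (left, 34 cells) or 2 (right, 37 cells), placed by log2(Acta2 + Tagln UMIs per 10000 + 1) and by Kcnj8 (top) or summed Myl9, Tpm2 and Myh11 (bottom) on the same scale, and coloured by the mean of the gate genes. Most cells lie at 0 on the horizontal axis, and in each sample the cell with the most Acta2 is also the highest for summed Myl9, Tpm2 and Myh11.

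The other gate genes are given as a description, since a cell without Acta2 and Tagln had to enter through them. Rgs5 differed by 0.31 and 0.05 on the log2 scale between upper-ranked and lower-ranked cells, Notch3 by -0.01 and -0.09 and Pdgfrb by -0.32 and -0.45. Kcnj8 differed by 0.37 in sample 1 and -0.82 in sample 2, so its direction was not shared. Over the cells, Acta2 had a Spearman rho of 0.50 and 0.30 with Myl9 and of -0.22 and -0.21 with Kcnj8. The cell with the most Acta2 in sample 1 held 63 UMIs of it (104 per 10000), together with Rgs5 at 94.3 and Kcnj8 at 3.31 per 10000. The corresponding cell in sample 2 held 33 UMIs of Acta2 (120.1 per 10000), Myh11 at 36.4, Rgs5 at 3.64 and no UMI of Kcnj8 among 2748. It was among the 3 cells of sample 2 with a UMI of Cnn1. The pair of cells, 1 from each sample, thus differed in Rgs5, a gate gene. For Kcnj8 the contrast was 2 UMIs against 0, and Abcc9 was at 0 in both cells. The second-highest score of sample 2, 14.9 per 10000, belonged to the member with 268847 UMIs.

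Next, the genes through which endothelium and mural cells signal to each other were set side by side. For the PDGF pathway, the ligand gene Pdgfb averaged 2.90 and 2.88 per 10000 in endothelial cells, 1.96 and 1.21 in immune cells and 0.0561 and 0.111 in mural cells. Its receptor gene Pdgfrb, a gate gene, was at 10.2 and 8.28 in mural cells and 0.0214 and 0.122 in endothelial cells, and Pdgfra, the receptor of fibroblasts, was at 0.111 and 0.210 in mural and 3.63 and 3.42 in stromal cells. The level of Pdgfrb in mural cells was set by the gate, whereas Pdgfb was not a gate gene. Cdh2, N-cadherin of the contact between pericyte and endothelium, differed by 1.19 and 1.20 on the log2 scale. Of the 14 genes of the PDGF, angiopoietin and VEGF list past the filter, Cdh2 alone was higher, and 4 were lower (Pdgfb, Tie1, Flt1 and S1pr1). Cdh2 lost the call with all deposited cells, with cells thinned to 1000 UMIs and with summed UMIs. Flt1, a VEGF receptor, averaged 1.20 and 1.80 in mural cells and 41.6 and 39.4 in endothelial cells.

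Angpt1, the mural ligand of the angiopoietin receptor, averaged 0.977 and 1.05 per 10000 and differed by 0.16 and 0.21. Its receptor gene Tek was at 7.97 and 6.47 in mural cells, 9.63 and 8.64 in endothelial cells and 6.19 and 6.54 in follicular cells. In TFCOs the gene's value went with the well barcode. Over 2238 pairs of TFCO cells of different plates with the same barcode, the centred Tek values had a correlation of 0.667. The same measure was above 0.1 for 9 of 90 named genes with a UMI in at least 20 TFCO cells, among them Gucy1a1 (0.180), Ano1 (0.172) and Ebf2 (0.112). The part of the barcode in the tissue levels of Tek was not tested.

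Against 2.3% higher and 1.89% lower over all genes tested, 1 of 9 Notch genes past the filter was higher and 0 were lower. This was Heyl, a transcriptional repressor downstream of Notch, at 2.40 and 2.78 per 10000 in mural cells, 0.0637 and 0.0676 in endothelial cells and 0.839 and 0.838 in stromal cells. The ligand gene Dll4 averaged 2.06 and 1.89 in endothelial and 0.0329 and 0.0386 in mural cells, and Jag2 1.23 and 1.20 in endothelial cells with 0 and 0.00101 in mural cells. Jag1 was found instead in mural cells, at 1.05 and 1.03 against 0.222 and 0.0789 in endothelial cells, a log2 difference from other tissue cells of 0.80 in both samples, short of the call. Other tissue cells averaged 0.178 and 0.165 of Jag1, levels at which the 1 added to each mean shrinks the difference. Notch1 stood higher in endothelial cells, at 2.38 and 1.74, than in mural cells, at 0.801 and 0.773. Hes1 differed by -0.06 and 1.07, so the samples disagreed.

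**Figure D3:**
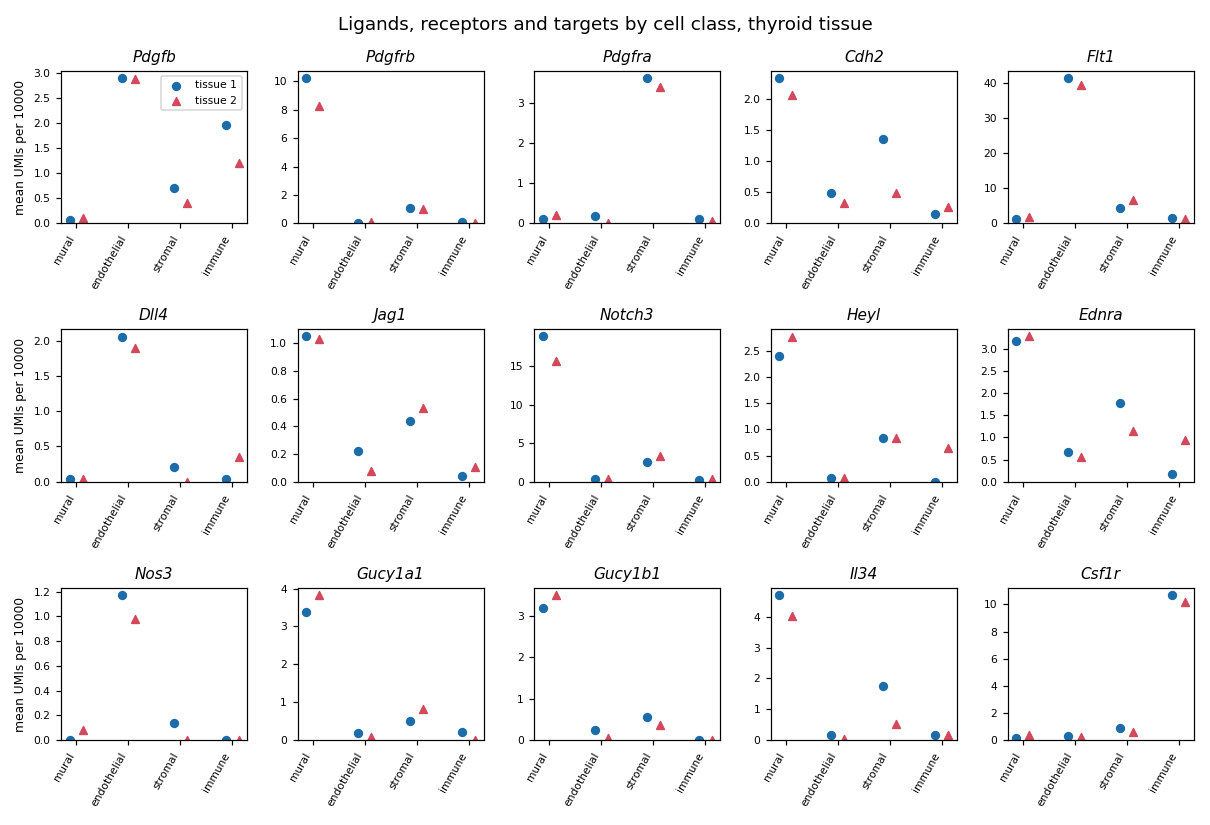
Mean UMIs per 10000 (linear axes from 0, 1 point per tissue sample) of signalling genes in mural, endothelial, stromal and immune cells of the thyroid. Pdgfb, Flt1, Dll4 and Nos3 are highest in endothelial cells, Pdgfrb, Notch3, Heyl, Gucy1a1, Gucy1b1 and Il34 in mural cells, Pdgfra in stromal cells and Csf1r in immune cells, in both samples.

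Of 38 genes for vasoactive signals 17 passed the filter, of which 7 were higher and 0 lower, with a median log2 difference of 0.84 and 0.63. Gucy1a1 and Gucy1b1 encode the subunits of soluble guanylate cyclase, the receptor for nitric oxide. They averaged 3.39 and 3.83, and 3.20 and 3.5 per 10000 in mural cells, and 0.182 and 0.0989, and 0.248 and 0.0476 in endothelial cells. UMIs of both were found in 33 members. Nos3, the endothelial nitric oxide synthase, averaged 1.17 and 0.982 in endothelial cells and 0 and 0.0798 in mural cells. Downstream, Pde3a and Pde5a, which break down cyclic nucleotides, differed by 1.98 and 1.79, and by 1.44 and 1.06, on the log2 scale. Pde5a lost the call in several alternatives, among them all deposited cells and summed UMIs. Prkg1, the kinase activated by cGMP, differed by 1.17 and 0.95 and thus met the call in sample 1 alone.

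Receptors for constrictors were named for their role after their values were seen, apart from those called. Agtr1a, the angiotensin II receptor, averaged 3.84 and 2.88 per 10000 in mural cells and 0.0904 and 0.0450 in endothelial cells. Ednra, the endothelin receptor of vessel walls, averaged 3.19 and 3.29 in mural and 0.675 and 0.548 in endothelial cells, whereas Ednrb averaged 0.955 and 1.26 in mural and 4.32 and 4.55 in endothelial cells. The 2 endothelin receptor genes thus had opposite orders in these classes in both samples. The adrenergic receptor gene Adra1b was at 0.465 and 0.348 in mural and 0.458 and 0.402 in endothelial cells. Rasl12, a small Ras-like GTPase, differed by 2.78 and 2.04 from other tissue cells. No UMI was found in the mural cells for 6 of the 38 genes.

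Ion channels gave 5 of 21 genes higher and 2 lower, with a median of 0.41 and 0.17. Cacna1c, the pore of the L-type calcium channel that admits calcium for contraction, averaged 12.8 and 10.7 per 10000 in mural cells, 0.755 and 0.795 in endothelial cells and 4.62 and 3.24 in stromal cells. A UMI was found in 85.3% and 86.5% of mural cells. Ano1, a calcium-activated chloride channel, differed by 2.33 and 2.08, Atp1b2, a sodium pump subunit, by 2.16 and 2.00, Trpc6, a cation channel, by 1.40 and 1.25, and Kcnk3, a background potassium channel, by 1.85 and 1.15. Kcnk3 had a stromal mean of 1.52 in sample 2, near the mural mean of 1.78 there, but 0.525 in sample 1 against 3.52. It lost the call in several alternatives, among them all deposited cells and summed UMIs. With Kcnj8 and Abcc9, the mural cells thus carried RNA of channels for potassium, calcium and chloride.

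Matrix genes were in part shared with stromal cells. Of 32 listed basement membrane and matrix genes past the filter, 7 were higher and 1 lower, with a median of 0.21 and 0.45. Mgp, an inhibitor of calcification, averaged 39.8 and 40.0 per 10000 in mural cells, 0.740 and 0.724 in endothelial cells and 43.5 and 48.8 in stromal cells. Col6a1 and Col6a2, chains of collagen VI, likewise lay at or above the mural level in stromal cells, with Col6a1 at 8.30 and 3.80 in mural and 8.34 and 5.10 in stromal cells. By contrast, Postn, periostin, averaged 5.94 and 5.30 in mural and 0.653 and 0.896 in stromal cells, and Itga7, a laminin receptor subunit, 4.46 and 3.15 against 0.787 and 0.490. Col4a1, collagen IV of the shared basement membrane, was at 9.24 and 11 in mural, 20.8 and 22.9 in endothelial and 9.63 and 10.7 in stromal cells.

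Overlap with stromal cells was a property of several genes. Of the gate's stromal list, Col3a1 averaged 5.57 and 4.71 per 10000 in mural cells against 30.2 and 21.8 in stromal cells, and Col1a2 3.71 and 2.79 against 29.4 and 18.9. Dcn, decorin, averaged 0.723 and 0.00302 in mural and 44.4 and 38.1 in stromal cells, with a UMI in 23.5% and 2.70% of mural cells. The gate held the mean of these 3 genes below that of the mural genes in every member. Summed over the list, the members ranged from 0 to 39.7 in sample 1 and from 0 to 36.2 in sample 2, with medians of 5.60 and 6.67. Of 12 fibroblast genes past the filter 2 were higher (Cygb and Serping1) and 1 was lower. Cygb, cytoglobin, averaged 5.41 and 4.45 in mural and 3.36 and 2.12 in stromal cells. The part of stromal RNA in the mural values was not tested.

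Of the remaining lists, 1 of 10 cytokine and adhesion genes past the filter was higher. This was Il34, a ligand of the macrophage receptor CSF1R, at 4.70 and 4.01 per 10000 in mural, 1.77 and 0.519 in stromal and 0.164 and 0.0370 in endothelial cells. Csf1r was at 10.7 and 10.2 in immune cells, and Csf1, the other ligand gene, at 0.147 and 0.194 in mural cells. No member of the 19 TGF-beta and BMP genes past the filter met the call, and Serpine2, a protease inhibitor, came closest at 0.77 and 0.90. With 2.3% of all genes tested higher and 1.89% lower, such a count in a short list says little about the list. Among other endothelial genes, 8 of 18 were lower and Fabp4, a fatty acid carrier, alone was called higher. Fabp4 averaged 10.2 and 11.7 in mural and 3.70 and 4.0 in endothelial cells. Cd36, of the same list, differed by 0.75 and 1.20 and met the call in sample 2 alone. Slc2a4, the insulin-responsive glucose transporter GLUT4, averaged 1.14 and 1.24 in mural cells and 0 and 0.0479 in endothelial cells. Its call was lost in several alternatives, among them all deposited cells and summed UMIs. Igfbp5, which binds insulin-like growth factors, differed by 1.21 and 1.20.

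Immediate early genes (0 of 12 called) and heat shock genes (0 of 8) did not meet the call, with Fos, an immediate early transcription factor gene, at 0.84 and 0.97. Over all genes tested 2.3% were higher and 1.89% lower, so a count of 0 in lists this short says little about them. The 10 proliferation genes all stayed under the filter, with summed means of 1.29 and 0.721 per 10000 in mural cells. Markers of other cells the gate could have taken in varied by list. The 10 skeletal muscle genes stayed under the filter, and Sox10, a transcription factor of Schwann cells, had 8 UMIs in sample 1 and 0 in sample 2. The Schwann and nerve list as a whole summed to 6.80 and 5.35 per 10000 in mural and 4.75 and 5.29 in other cells, and its member Cryab, a small heat shock protein, differed by 0.96 and 0.94. The part of such cells in the mural values was not tested. Erythroid genes were lower in 4 of 4 cases, with summed means of 2.36 and 0.713 in mural and 80.3 and 35.9 in other cells. The low level was shared by endothelial cells, at 6.03 and 1.42, and stromal cells, at 6.23 and 1.55. Unassigned cells held the high values, with Hba-a1 at 243 and 67.5. Tg was found in every mural cell, with a median of 12.6 (2.70 to 194) in sample 1 and 19.8 (1.67 to 227) in sample 2. Its mean of 19.3 and 35.1 was close to the 20.8 and 30.6 of endothelial cells, and follicular cells averaged 1536 and 1324. Stromal cells, at 30.7 and 35.6, and immune cells, at 19.2 and 23.5, held Tg at similar levels. The part of RNA from other cells in the mural values was not tested.

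**Figure D4:**
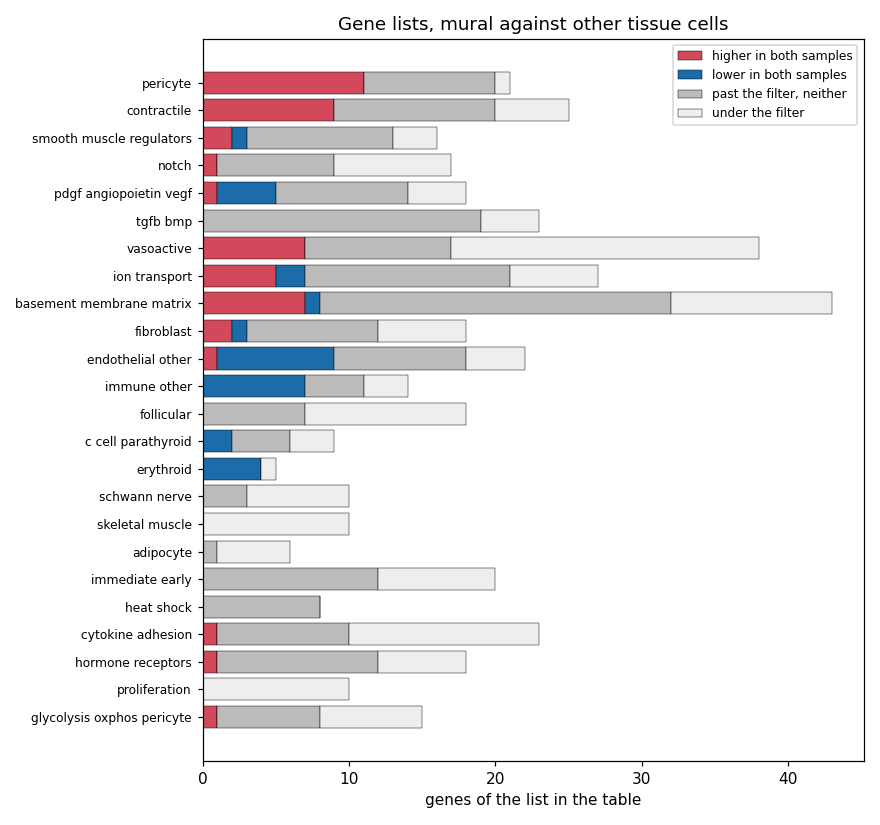
Genes of each list in the table (horizontal axis, number of genes), split by whether mural cells were at least 1 higher or lower than other tissue cells on the log2(mean + 1) scale in both samples, neither, or under the filter on low values. Pericyte (11 of 21), contractile (9 of 25), vasoactive (7 of 38) and matrix genes (7 of 43) hold most of the higher genes, and immune, endothelial and erythroid lists most of the lower ones.

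Outside the lists, the 15 genes with the largest difference, each with a UMI in at least 20% of mural cells, were led by Aspn. Aspn, asporin, a small leucine-rich matrix protein, differed by 2.89 and 2.71, from 8.28 and 7.01 per 10000 in mural and 1.17 and 1.10 in stromal cells. Secreted or matrix proteins were also encoded by Angptl2 (2.07 and 2.33), Tnxb (1.78 and 2.11), Adamts12 (1.82 and 1.72) and Rarres2, the adipokine chemerin (1.80 and 2.29). Tnxb and Adamts12 were close to their stromal levels, with differences from stromal cells of 0.22 and 0.38, and of 0.29 and 0.59. Genes of intracellular signalling and traffic made up much of the rest, with Plcl1, an inactive phospholipase C relative, at 2.14 and 2.15, Arhgef17, a guanine nucleotide exchange factor, at 2.29 and 2.10, Adap2, an Arf GTPase regulator, at 1.98 and 2.55, Sgip1, an endocytic adaptor, at 2.05 and 2.24, and Lin7a, a scaffold protein, at 2.01 and 1.88. Pla2r1, a phospholipase A2 receptor, differed by 1.89 and 1.81.

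H2-M9, a nonclassical MHC class I gene, averaged 11.7 per 10000 in sample 1 and 4.85 in sample 2, with a UMI in 76.5% and 40.5% of mural cells. It differed by 3.37 and 2.02 from other tissue cells, so the samples lay further apart than for the other leading genes. Class I genes have close copies, and how reads shared between copies were counted is not given in the sources used here. The noncoding RNAs Meg3 (1.81 and 2.62) and Airn (1.67 and 1.75) were also among these genes. Airn overlaps Igf2r on the other strand, and 47 of the 116 named genes overlap a gene on the opposite strand in the annotation. The 5 most negative genes, each with a UMI in at least 20% of other cells, were Tg (-3.98 and -2.91), whose limit in the gate fixed its direction, Podxl, podocalyxin (-2.77 and -2.99), Plpp3 (-2.93 and -2.34), Plpp1 (-2.55 and -2.08) and Ly6e (-2.43 and -2.16). Except for Tg, these stood highest in endothelial cells, with Podxl at 16.6 and 16.1 per 10000 there.

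**Figure D5:**
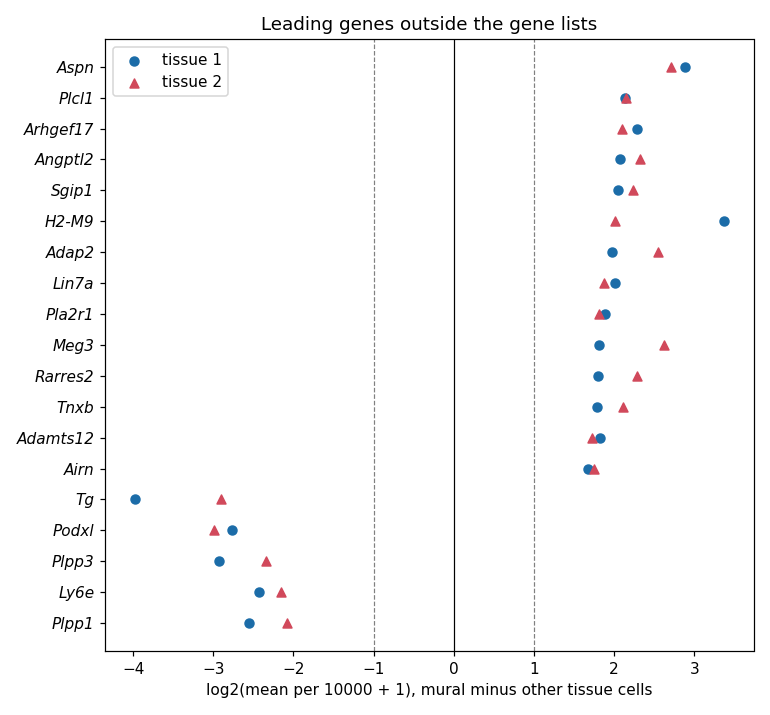
Difference between mural and other tissue cells on the log2(mean UMIs per 10000 + 1) scale for genes among the 15 highest and the 5 lowest outside the lists, 1 point per tissue sample, with dashed lines at 1 and -1. All lie beyond the dashed lines in both samples, and H2-M9 shows the widest gap among the higher genes, at 3.37 and 2.02.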

How the data were processed

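Single mouse cells were sorted into 384-well plates and sequenced by SORT-seq, with 1 plate per sample. The submitters' processing notes name Trim Galore 0.4.3, STAR 2.5.3a, Seurat and the builds GRCm38 and mm10. Strand use in counting is not given in the sources used here. The deposited values are the natural log of 1 plus UMIs per 10000 of the cell, in 1 table of 30879 genes by 2590 cells made by the authors. UMIs were recovered by dividing each cell's back-transformed values by its smallest non-zero value, and 100% of values came out whole within 0.01.

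The 7 samples were grouped by the labels as tissue (2), late TFCO (3) and early TFCO (2), and total UMIs ran from 1406925 to 4703472 per sample. The labels do not pair samples. Cells with 1000 UMIs or more were classed by the gate. Per sample, means of UMIs per 10000 over cells were compared on the log2(mean + 1) scale with no test, because the gate used the same cells and 2 samples bear none. Genes with a mean of 0.5 in either set were counted, and a call needed a difference of 1 in the same direction in both samples. Members and gene lists were chosen with earlier results of these data known.

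Named were the gate genes, up to 5 genes of each list with the largest smaller-of-2 difference and a mean of 0.5 in mural cells, and the 15 highest and 5 lowest genes outside the lists. For the ranked cells 10 genes were named in each direction. Some genes that these rules select are not reported here. Further list genes were named for their role after their values were seen. Listed genes outside the table numbered 8 and were not used here. On simulated cells with 4-fold changes in 200 genes, run on 4783 genes, 100% of raised and 77% of lowered genes were called for the comparison of mural with other tissue cells, and 0 of 4583 unchanged genes. The changed genes all had means well above the filter. Apart from them every simulated cell had the same profile, and the depth of the deepest cells was capped. These shares therefore do not carry over to genes near the filter or to the mixed classes of the tissue. Alternatives comprised other depth limits, gates, scalings, pseudocounts, a Leiden cluster and leaving out each sample. Python 3.11.15, NumPy 2.4.6, SciPy 1.17.1, pandas 2.3.3, scanpy 1.11.5 and matplotlib 3.10.9 were used.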

Additional observations from a re-analysis of the deposited data

How the results depend on the processing

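The share of mural cells (mean of samples 12.4%) moved by more than the SD between samples when a gate gene was dropped, to 10.4% without Rgs5, 14.3% without Acta2 and 14.1% without Tagln, and to 9.41% with cells thinned to 1000 UMIs. It stayed within that SD under the other 8 changes of cells or gate, and leaving out 1 tissue sample gave 11.1% to 13.6%. A Leiden cluster of 62 cells shared 55 with the gate. The 128 genes higher in mural cells became 400 and the 105 lower became 405 with a pseudocount of 0.1. With UMIs summed over cells 46 were higher, and 119 once the member with 268847 UMIs was left out, an alternative chosen after seeing the data. With 1 tissue sample left out 183 to 196 genes were higher and 147 to 180 lower, since a single sample then had to pass. Of 81 named genes called, all 81 kept their direction under every alternative, and 50 kept the call with summed UMIs, the fewest. The kept direction was in part fixed in advance. Leaving out a sample, another pseudocount or no filter cannot turn a gene called in both samples. The gate set the direction of its own genes and of Tg, and all alternatives used the same plates.

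Counts in the ranking of mural cells depended on nearly every choice. The 9 higher and 2 lower genes became 93 and 92 with thinned cells, 307 and 220 with a pseudocount of 0.1, and 26 and 16 with the score of Myh11, Tpm2 and Myl9. With Acta2 alone 6 were lower, and with 1 tissue sample left out 130 to 193 were higher and 122 to 134 lower. Of alternatives chosen after seeing the data, leaving out the cell with the highest score of each sample gave 5 higher, splitting cells by any UMI of Acta2 or Tagln gave 5 lower, and members with a gate mean of 1 or more gave 4 lower. With the score of Myh11, Tpm2 and Myl9, mt-Cytb reversed to -0.27, Eln to -0.15 and Nr1h3 to 0.38, that is, 3 of the 11 genes called. Apart from the changes built into a setting, the cause was not tested. Each difference, between mural and other tissue cells or between upper-ranked and lower-ranked cells, was taken within a sample, and no test was run. Between groups of samples, no paired analysis was possible because the tissue samples are a single group and the labels do not pair samples.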
